A study of Caenorhabditis nigoni and Caenorhabditis briggsae with 14 samples.

Results

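Sterile males of the introgression strain ZZY10307 were set against fertile males of JU1421, a wild-type strain of the nematode Caenorhabditis nigoni, gene by gene and repeat family by repeat family. Most of the ZZY10307 genome is that of C. nigoni, and its males carry, in place of the matching part of the X chromosome, a stretch of the X of the close relative C. briggsae that the labels place at 4.5 to 12.2 Mb. The comparison rests on 6 of the 14 libraries of the study, 3 per strain, each made from messenger RNA of 300 pooled whole young adult males. All 23439 listed genes and all 920 listed repeat families of these libraries were taken, with no choice by their values. ZZY10307 males were sons of JU1421 fathers and fertile mothers with the introgression, and were recognised by a green fluorescent reporter, cbr-myo-2::GFP, driven by a pharyngeal myosin promoter. JU1421 males are described without such a marker. The introgressed segment, the marker, the cross and the picking thus come together in one group and cannot be told apart. Males of further strains entered the filter on low counts and the fit, for a shared estimate of spread. These were AF16, the wild-type C. briggsae strain, and a second sterile strain, ZZY10330 (C. briggsae X from 16.4 Mb to the end). AF16 males also set the sex classes, the level groups and the check of parental features. ZZY10330 males are otherwise quoted beside single values and compared directly with ZZY10307 in the closing section. The 1 female library each of AF16 and JU1421, also from 300 animals, served to sort genes by sex bias.

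Caenorhabditis males carry a single X chromosome and a gonad that makes sperm throughout adult life, so that a large part of the messenger RNA of a whole adult male comes from the germline. Hybrids between C. briggsae and C. nigoni are often sterile or inviable, and males, the sex with 1 X, are as a rule the more affected. Such sterility is commonly studied by moving short marked segments of one genome into the other. Germ cells also keep transposable elements and other repeats in check through small RNAs, which is one reason why repeat RNA is counted in hybrids. In whole worms, fewer cells of a type and less RNA per cell cannot be told apart.

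The 6 libraries held 2390308 to 3260449 gene counts and 112876 to 536392 repeat counts. Library depth did not separate the strains, with 2775802 ± 135750 gene counts in JU1421 and 2841101 ± 435922 in ZZY10307 (SD, n = 3). Across genes, log2 levels of libraries of the same strain correlated with Spearman's rho of 0.924 to 0.946, and those of different strains with 0.777 to 0.834. These correlations run over genes that share a library and are a description only. Genes are known only by WormBase identifier, which the files do not pair with names or positions, so the sex and tissue of the libraries could not be checked against marker genes and no gene could be placed on the X. Whether the replicates are separate cultures is not stated in the labels, and p-values therefore measure only the spread between these libraries, which may be technical.

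The C. nigoni background of ZZY10307 was checked with genes and repeat families seen in 1 parent only. Of 92 genes with at least 10 CPM (a counts-per-million value, after scaling) in JU1421 males and no count in AF16 males, 78 had a count in every ZZY10307 library and 2 had none in any. Of 51 genes with at least 10 CPM in AF16 and no count in JU1421, 5 had a count in every ZZY10307 library and 32 had none in any. Of 15 families found in JU1421 but not in AF16, 14 were present in every ZZY10307 library and 0 were absent from all. Of 16 families found in AF16 but not in JU1421, 2 were present in every ZZY10307 library and 6 were absent from all. Counts in all 3 ZZY10307 libraries were thus usual for features of the C. nigoni parent and rare for those of the C. briggsae parent, though some of the latter had counts in 1 or 2 libraries. ZZY10330 males had counts in all 3 libraries in 69 of the 92 and 3 of the 51 genes, and in 13 of the 15 and 0 of the 16 families. The check thus bears on the background and not on which segment a strain carries. The 92 genes had a median of 20.7 CPM in JU1421 and 7.90 CPM in ZZY10307, where 41 reached 10 CPM. Because these sets were chosen on JU1421 and AF16 values, no test was made on them. Reads of the C. briggsae segment may be assigned to the shared gene list unequally, as the sources used here do not name the reference that reads were counted on.

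Against JU1421, 1235 genes were higher and 1796 lower in ZZY10307 males, 22.8% of the 13289 genes tested (edgeR's quasi-likelihood test, Benjamini-Hochberg adjusted p below 0.05). Higher genes were 9.29% and lower genes 13.5% of those tested. Of the called genes, 955 were higher by 2-fold or more (7.19% of genes tested) and 1472 lower by 2-fold or more (11.1%). Very large differences were fewer: 190 genes (1.43%) were lower and 113 (0.85%) higher by 16-fold or more. Every ZZY10307 library lay below every JU1421 library in 2952 genes (22.2%) and above in 2847 genes (21.4%). The scale was TMM, which sets library factors from the bulk of genes. With total counts as the only scale, the split turned to 2472 higher and 1246 lower, and the median log2 fold change of all genes moved from 0.09 to 0.48. The balance between rises and falls therefore depends on the scale, and class medians are given below also relative to the median of all genes.

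**Figure D1:**
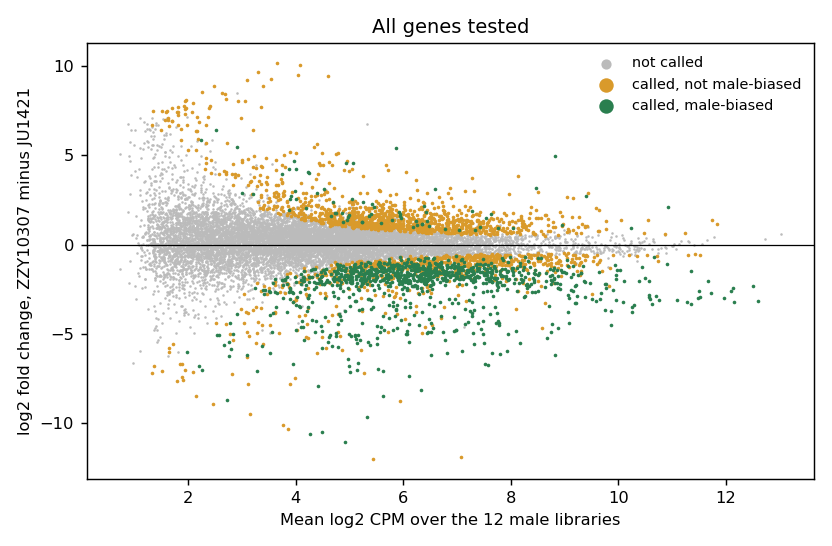
Each point is 1 of the 13289 genes tested, with the mean log2 CPM over the 12 male libraries on the x axis and the log2 fold change of ZZY10307 minus JU1421 on the y axis. Among the 1796 genes called lower, the 1028 male-biased genes (green) are more than the rest together, while 1165 of the 1235 genes called higher are not male-biased (orange).

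Genes that JU1421 expressed and ZZY10307 did not were few. In 30 genes all 3 JU1421 libraries had counts, with 30 or more in sum, and no ZZY10307 library had any. Of these, 11 were male-biased in AF16 and 15 had 30 or more counts in AF16 males. Male bias in JU1421 was met by 17, but it uses the same JU1421 male counts, and its share over all genes is not given. The opposite pattern, counts in all 3 ZZY10307 libraries with 30 or more in sum and none in JU1421, was seen in 92 genes. None of the 92 was male-biased in AF16 or in JU1421, as absence from JU1421 males requires for the latter, and 13 were female-biased in AF16. Over all 23439 listed genes, 1800 were male-biased and 950 female-biased in AF16. AF16 males had 30 or more counts in 11 of the 92 genes and none in 28. These sets were chosen on the values compared and are a description. They were thinly counted, with medians of 59 and 49 counts over 3 libraries, and 26 of the 30 and 50 of the 92 passed the test.

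The largest losses were in genes that JU1421 males expressed at over 100 CPM. WBGene00040934 stood at 159, 188 and 157 CPM in the 3 JU1421 libraries and had no count in any ZZY10307 library, at least 553-fold lower against a floor of 3 counts over the group (edgeR adjusted p = 2.09e-05). The strains do not overlap, and the gene was also low in AF16 males, at 2.73 ± 1.02 CPM, and in ZZY10330 males, at 1.74 ± 3.02 CPM (SD, n = 3). WBGene00029353 stood at 447, 568 and 585 CPM in JU1421 and at 0, 0.262 and 0 CPM in ZZY10307 (adjusted p = 0.000388, edgeR). Its 3913 counts against 1 give a ratio of 5269, and the exact 95% interval of the ratio, for counting error, runs from 945 to 208183. The sole count was in ZZY10307 replicate 2. AF16 males stood at 1.89 ± 1.64 CPM. Both genes were thus high in JU1421 males and low in AF16 and ZZY10307 males, and neither passed the AF16 criteria of sex bias. The female libraries held 0 and 2 counts of them in JU1421 and none in AF16.

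In the other direction the largest gains started from no count at all. WBGene00027595 was without counts in males of either parent and stood at 70.8, 27.5 and 42.7 CPM in ZZY10307, at least 112-fold higher (edgeR adjusted p = 9.48e-06). It was female-biased in AF16, though with only 16 counts in that female library and 4 in the JU1421 one. WBGene00025461 had no count in JU1421 males and stood at 55.9, 36.4 and 37.4 CPM in ZZY10307, at least 105-fold higher (adjusted p = 9.51e-07, edgeR). AF16 males stood at 8.63 ± 2.06 CPM (SD, n = 3), between JU1421 and ZZY10307 males. The gene was seen in females of both parents, with 43 counts in the JU1421 female library and 31 in the AF16 one. All ZZY10307 libraries were well above the males of both parents in these 2 genes, and replicate 1 was the highest in each.

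Male-biased genes lost most. The class was taken from AF16, whose libraries are not part of the contrast, and held 1800 genes at 4-fold or more in males and at least 5 CPM, of which 1779 were tested. In AF16 the animals labelled female are ordinarily self-fertile hermaphrodites, a background fact that bears on what the class leaves out, since hermaphrodites make sperm before oocytes. Male-biased genes took 30.3, 32.3 and 33.6% of gene counts in the JU1421 libraries and 12.4, 11.3 and 11.9% in the ZZY10307 libraries. The strains do not overlap, and the JU1421 mean is 2.71 times the ZZY10307 mean (exact two-sided permutation p = 0.1, the smallest that 3 against 3 libraries allow). In the JU1421 female library the same genes took 0.670%, so the sterile males lay between fertile males and females, nearer to females in percentage points.

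Among the 1779 genes, 1028 fell and 70 rose (edgeR), which is 57.8% falling against 13.5% of all genes tested. The median log2 fold change was -1.45, or -1.54 relative to the median of all genes, and the latter value was -1.55 under total counts alone. With genes that lack counts in a strain held at their bound, the median was -1.47. Library by library, the median stood at -1.31, -1.51 and -1.39 in ZZY10307 relative to the JU1421 mean, while the 3 JU1421 libraries stood at -0.07, 0.00 and 0.08. Every ZZY10307 library lay below every JU1421 library in 1191 of the 1779 genes, against 2952 of all 13289 genes tested (22.2%). A fall of 4-fold or more was called in 426 male-biased genes and of 16-fold or more in 129, so the class held 129 of the 190 genes that fell this far. Male-biased genes were 13.4% of the genes tested.

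**Figure D2:**
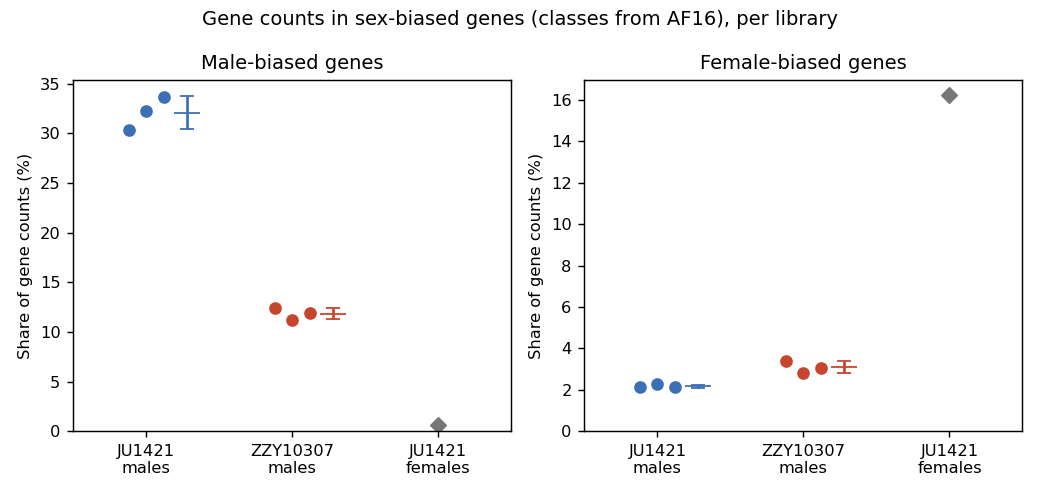
Points give the share of gene counts, in percent, in male-biased (left) and female-biased (right) genes for each of the 3 JU1421 male, 3 ZZY10307 male and 1 JU1421 female libraries, and bars give mean ± SD of the males. ZZY10307 males hold 11.3 to 12.4% in male-biased genes against 30.3 to 33.6% in JU1421, and 2.82 to 3.42% in female-biased genes against 2.13 to 2.27%.

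The lost counts were spread unevenly. The male-biased share was smaller by 20.2 percentage points of gene counts in ZZY10307. This is a net difference, in which 1379 of the 1800 genes had a smaller share. With genes ranked by their own difference, the top 29 held 50.6% of the net difference. The single gene with the most held 5.66% of it, and 314 genes held 90%. The 20 male-biased genes with most counts in each library took 34.9 ± 1.71% of all male-biased counts in JU1421 and 26.6 ± 0.587% in ZZY10307 (SD, n = 3), without overlap. Male-biased counts of ZZY10307 males were therefore both fewer and less concentrated in a few genes than those of JU1421 males. Lower concentration did not go with sterility across strains. The same share was 23.9 ± 0.295% in fertile AF16 males and 34.3 ± 1.52% in sterile ZZY10330 males (SD, n = 3).

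Male-biased genes that AF16 males express strongly had lower median changes than weakly expressed ones. Over 231 male-biased genes at 5 to 10 CPM in AF16 males, 24 fell, 9 rose and the median log2 fold change was -0.47. The 10.4% that fell are below the 13.5% of all genes tested, and the median was -0.08 with total counts alone. Over 996 genes at 10 to 100 CPM, 515 fell, 47 rose and the median was -1.34. At 100 to 1000 CPM, 443 of 497 genes fell, 11 rose and the median was -1.71. Above 1000 CPM, 46 of 55 genes fell, 3 rose and the median was -2.58. Each of the 3 ZZY10307 libraries kept this order: the medians of the highest level group were -2.29, -2.63 and -2.73 and those of the lowest -0.19, -0.25 and -0.35. More counts also make a fall easier to call, so the counts of called genes follow depth as well, and the medians were not tested against each other.

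Genes of neither class differed less between levels. Over the 4172 of 14025 such genes up to 10 CPM that passed the filter on low counts, the median log2 fold change was 0.30. Without that filter it was 0.14, below the 0.25 of genes at 10 to 100 CPM under the same setting. The order of these lower levels thus depends on the filter. Of 1423 such genes above 100 CPM in AF16 males, 336 fell (23.6%) and 249 rose (17.5%). Both shares are above the 13.5% and 9.29% of all genes tested. The median log2 fold change of these genes was -0.13, which turned to 0.26 under total counts alone. Relative to the median of all genes the first is -0.22. Of 5241 genes at 10 to 100 CPM, 283 fell (5.40%), 689 rose (13.1%) and the median was 0.24. In the level groups compared, the median of male-biased genes above 100 CPM lay below that of genes of neither class in each of the 3 ZZY10307 libraries.

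**Figure D3:**
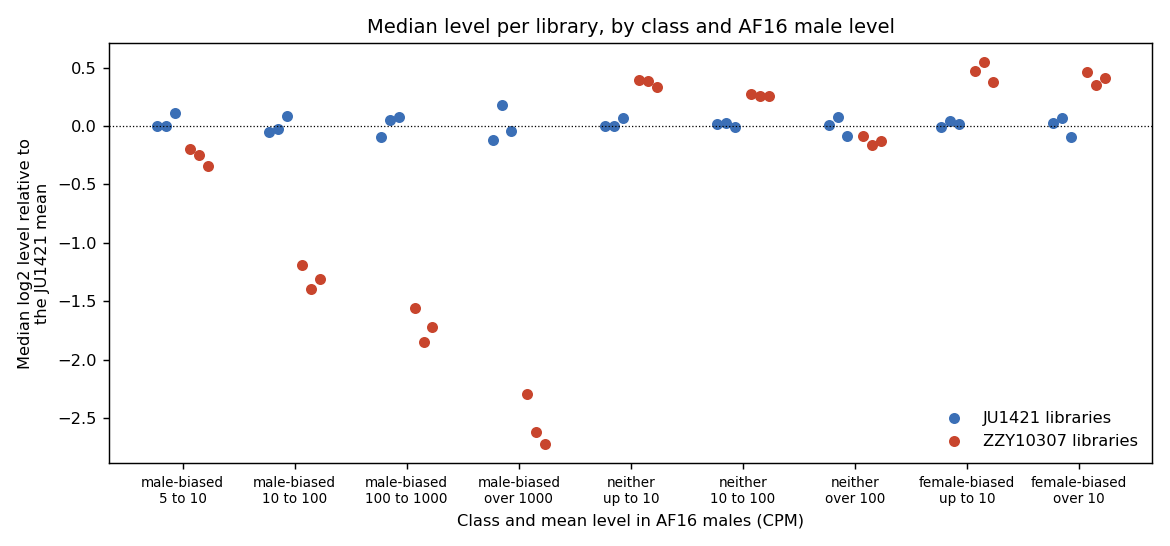
For each class and level in AF16 males (CPM, x axis), points give the median log2 level over its genes in each JU1421 (blue) and ZZY10307 (red) library relative to the JU1421 mean. Male-biased genes reach -2.29 to -2.73 in ZZY10307 above 1000 CPM, whereas genes of neither class stay between -0.16 and 0.40.

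Male-biased genes that the AF16 female library did not show at all had a lower median change than those it showed. Over the 221 tested genes of the class without a count there, 136 fell (61.5%), 6 rose and the median log2 fold change was -3.43. Over the 1558 with a count, 892 fell (57.3%), 64 rose and the median was -1.39. The shares of genes that fell were thus similar between these groups, against 13.5% of all genes tested. A gene without a count there can be absent from females or too weak to be seen, and only 1 female library per strain exists. By size of AF16 bias the shares differed, with 50.3% of the 1300 tested genes of 4- to 16-fold bias falling. Falls were 72.4% of the 351 of 16- to 64-fold bias and 93.8% of the 128 beyond 64-fold. The medians were -1.29, -1.64 and -4.40, and level in AF16 males was not held equal.

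The fall stopped well short of the female level in most genes. Of the 1779 male-biased genes, 1732 stood higher in JU1421 males than in the JU1421 female library and 1726 stood higher in ZZY10307 males than in that library. The median difference from the female library was 5.43 on the log2 scale in JU1421 males and 3.64 in ZZY10307 males, with a prior count of 2. In 1402 genes the ZZY10307 level lay between those of JU1421 females and males. The female library had no count of 942 of the genes, and 804 of these had a count in every ZZY10307 library. In the 128 genes beyond 64-fold male bias in AF16, the median difference from the female library was 7.02 in JU1421 males and 2.60 in ZZY10307 males, and 66 of 100 genes without a female count were seen in all 3 ZZY10307 libraries. Most male-biased genes thus still had counts in the sterile males, at lower levels. The female side has no replicate, and no RNA amount is stated for it, so these values carry no test.

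Of the 70 male-biased genes that rose, 60 were among the 1300 with 4- to 16-fold bias in AF16 (4.62%), 8 among the 351 with 16- to 64-fold bias (2.28%) and 2 among the 128 beyond 64-fold (1.56%). By level in AF16 males, 47 of 996 genes at 10 to 100 CPM rose (4.72%), and 3 of 55 above 1000 CPM (5.45%). A rise of 16-fold or more was called in 12 of them. At 3.93% of the 1779 genes, rises were rarer here than the 9.29% over all genes tested.

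Female-biased genes, 950 in AF16, moved less. Tested were 674, of which 70 rose and 19 fell (edgeR), 10.4% rising against 9.29% of all genes, with a median log2 fold change of 0.39. The share of genes that rose is thus near the background, while the 2.82% that fell are below the 13.5% of all genes tested. The median was 0.29 relative to all genes, and it stayed at 0.29 with total counts alone. Library by library, the median stood at 0.47, 0.44 and 0.40 in ZZY10307 and at 0.00, 0.06 and 0.00 in JU1421. Their share of gene counts was 3.42, 2.82 and 3.08% in ZZY10307 against 2.16, 2.27 and 2.13% in JU1421, without overlap (exact two-sided permutation p = 0.1, the smallest possible). The JU1421 female library held 16.2% in them. Leaving out any 1 library lowered the number of rises, to between 38 (without JU1421 replicate 3) and 52 (without JU1421 replicate 1). Rises over all genes also dropped, from 1235 to between 873 and 1102. Falls of female-biased genes ranged from 12 (without ZZY10307 replicate 3) to 20 (without ZZY10307 replicate 1). The cause of the drop was not tested.

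Of 288 female-biased genes above 10 CPM in AF16 males, 39 rose (13.5%, against 9.29% of all genes tested), 12 fell (4.17%) and the median was 0.42. Of the 386 tested genes at or below 10 CPM, 31 rose (8.03%, below that background) and 7 fell (1.81%). At both levels the share that fell was below the 13.5% of all genes tested that fell. Only 386 of the 662 genes at that level passed the filter on low counts, so their median is not given. Of the 674 genes, 83 stood above the JU1421 female library in ZZY10307 males and 53 did so in JU1421 males. The median distance below that library was -1.80 on the log2 scale in ZZY10307 and -2.34 in JU1421.

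**Figure D4:**
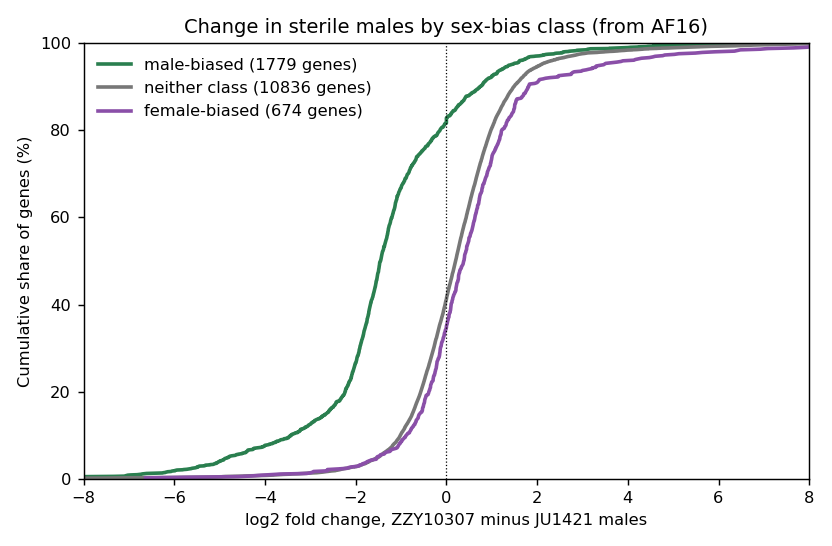
Lines give the cumulative share of genes (percent, y axis) at or below each log2 fold change of ZZY10307 minus JU1421 (x axis) for male-biased (green, 1779 genes), female-biased (purple, 674) and other genes (grey, 10836). The male-biased line lies far to the left, with a median of -1.45 against 0.39 and 0.20.

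Taken over all genes, male-biased ones included, ZZY10307 counts were less concentrated in the top genes, and more genes had a count. The 20 genes with most counts in each library took 11.9 to 12.2% of gene counts in JU1421 and 6.84 to 8.37% in ZZY10307. For the top 100 genes the shares were 25.9 ± 0.976% and 20.3 ± 0.880% (SD, n = 3). After each library was thinned to 2372653 counts, 13916, 13737 and 13804 genes had a count in JU1421 and 14994, 14489 and 14516 in ZZY10307. At 5 or more counts, the means were 12254 ± 233 and 13090 ± 17.8 genes (SD, n = 3). The strains do not overlap in any of these measures, each with an exact two-sided permutation p = 0.1, the smallest possible. The part of the smaller top share in the number of genes seen was not tested. Nor was the part of male-biased genes in the smaller top share.

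Genes of neither class, 10836 of those tested, made up 1095 of the 1235 rises and 749 of the 1796 falls. Their median log2 fold change was 0.20, or 0.11 relative to all genes, and 0.25, 0.23 and 0.21 in the 3 ZZY10307 libraries. By share of the class, 10.1% rose and 6.91% fell, against 9.29% and 13.5% of all genes tested. The class held 82 of the 113 genes that rose by 16-fold or more, and 81.5% of the genes tested. They took 65.7 ± 1.64% of gene counts in JU1421 and 85.1 ± 0.876% in ZZY10307 (SD, n = 3).

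Repeat families were named by the authors by number, with the prefix c_sp9, from an older provisional name of C. nigoni, or cb. As CPM of the gene counts of the same library, repeat counts summed to 157802, 183722 and 154370 in JU1421 and to 55168, 41299 and 47222 in ZZY10307, without overlap (exact two-sided permutation p = 0.1). The cb families, 361 of the 920, held this fall, with 150960 ± 15608 in JU1421 against 34222 ± 5341 in ZZY10307 (SD, n = 3). The 559 c_sp9 families held 14338 ± 1034 and 13674 ± 1628, a difference smaller than the spread (exact two-sided permutation p = 0.7). A single family, cb_rnd-5_family-688, made up 77.3, 79.7 and 79.8% of the repeat counts of the JU1421 libraries and 40.5, 38.2 and 39.9% of those of ZZY10307. Without that family and the next in size, the other families summed to 22881 ± 2692 in JU1421 and 26538 ± 3307 in ZZY10307 (exact two-sided permutation p = 0.3).

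Of 696 families with enough counts, 18 were lower and 7 higher in ZZY10307 (edgeR), 3.59% of those tested. Lower families were 2.59% and higher families 1.01%. The balance depends on the scale and the tool, with 16 higher and 11 lower under total gene counts alone, and 16 higher and 20 lower by DESeq2. The lower ones were 6 of 276 cb families and 12 of 420 c_sp9 families. The higher ones were 3 cb and 4 c_sp9 families. Libraries of the strains did not overlap in 24 of the 25, nor in 18.1% of all families tested, and cb_rnd-4_family-1230 was the called family that overlapped. An unadjusted p below 0.05 was reached by 83 families. Most families are thinly counted: only 33 averaged 100 CPM or more over the 4 male strains, and 12 of these were called, 10 lower and 2 higher. For the rest a change was often not detectable at this depth. Falls numbered 11 without ZZY10307 replicate 2 or replicate 3.

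The 2 families with most counts fell together. As CPM of TMM-scaled gene counts, the scale of all values per family below, cb_rnd-5_family-688 stood at 134145, 176642 and 135810 in JU1421 and 19945, 13460 and 15893 in ZZY10307. The log2 fold change was -3.18 (SE 0.24, edgeR adjusted p = 5.69e-37), and all 3 ZZY10307 libraries lay far below AF16, at 76922. The second, cb_rnd-5_family-2438, stood at 12078, 15978 and 12606 in JU1421 and 2523, 1840 and 1798 in ZZY10307, a log2 fold change of -2.72 (SE 0.25, adjusted p = 3.81e-25, edgeR). Relative to the first family, the second stood at 9.11 ± 0.15% in JU1421 and 12.5 ± 1.18% in ZZY10307 (SD, n = 3). The assignment of reads shared between families, or with a gene, is not stated.

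Of the falling families named, a pair of c_sp9 families lost most in proportion. Values of c_sp9_rnd-4_family-2009 were 1296, 1601 and 1451 in JU1421 and 88.5, 61.8 and 66.1 in ZZY10307, a log2 fold change of -4.33 (SE 0.32, edgeR adjusted p = 2.46e-39). Those of c_sp9_rnd-5_family-9330 were 138, 218 and 157 in JU1421 and 10.9, 4.97 and 6.71 in ZZY10307, a log2 fold change of -4.50 (SE 0.39, adjusted p = 1.61e-28, edgeR). ZZY10307 lay below both parents in both families, as AF16 stood at 492 in the first and 356 in the second. In c_sp9_rnd-5_family-3359, JU1421 stood at 1923, 2394 and 1710 and ZZY10307 at 494, 422 and 476, a log2 fold change of -2.11 (SE 0.27, adjusted p = 1.73e-12, edgeR). Here the sterile males stayed above AF16, at 258 ± 46.0 (SD, n = 3).

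Families that rose were smaller. The largest by counts, cb_rnd-5_family-4518, stood at 871, 872 and 400 in JU1421 and 2328, 1778 and 1927 in ZZY10307, a log2 fold change of 1.49 (SE 0.25, edgeR adjusted p = 3.23e-07). JU1421 replicate 3 was the lowest, and the change was 1.21 without it. AF16 males stood higher than either, at 3229. In c_sp9_rnd-5_family-6939 the JU1421 libraries stood at 144, 102 and 171 and the ZZY10307 libraries at 294, 474 and 379, a log2 fold change of 1.46 (SE 0.31, adjusted p = 0.000181, edgeR). In c_sp9_rnd-5_family-2147 they stood at 25.3, 18.6 and 29.6 against 86.0, 126 and 110, a log2 fold change of 2.13 (SE 0.41, adjusted p = 1.38e-05, edgeR). AF16 was below JU1421 in these last 2 families, at 41.5 and 11.3, so ZZY10307 lay above both parents.

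The calls of a pair of rising families, and the size of their change, depended on single libraries. Values of c_sp9_rnd-5_family-1398 were 3.32, 14.04 and 3.20 in JU1421 and 86.6, 35.3 and 53.7 in ZZY10307 (log2 fold change 3.09, SE 0.68, edgeR adjusted p = 0.000259). Without ZZY10307 replicate 1, the highest, the log2 fold change was 2.69 and the adjusted p 0.0646. It was 4.15 without JU1421 replicate 2. Values of cb_rnd-3_family-789 were 1.66, 0 and 0 in JU1421 and 14.9, 9.69 and 10.2 in ZZY10307 (log2 fold change 4.30, SE 1.13, edgeR adjusted p = 0.00552). Its log2 fold change was 3.75 (adjusted p = 0.0755, edgeR) without JU1421 replicate 2 and 3.74 (adjusted p = 0.0989, edgeR) without JU1421 replicate 3. Without JU1421 replicate 1, the only JU1421 library with a count, it was 8.16. In both families every ZZY10307 library lay above every JU1421 library. The family cb_rnd-3_family-789 was present in AF16 males, at 23.5 ± 3.93, and nearly absent from ZZY10330, at 0.367 ± 0.635 (SD, n = 3). Among the families named, it alone was near 0 in JU1421 and clearly counted in AF16.

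Several abundant families did not pass the test. The third in size, cb_rnd-5_family-81, stood at 3348 to 6211 in JU1421 and 3993 to 7057 in ZZY10307, with a log2 fold change of 0.13 (SE 0.23) and its sign turning without JU1421 replicate 3 or ZZY10307 replicate 1. The fourth, c_sp9_rnd-4_family-199, stood at 2031 to 3673 and 1294 to 3689, a log2 fold change of -0.23 (SE 0.49) whose sign also turned under total counts alone. For cb_rnd-5_family-4471 the values were 1001 to 1226 and 1134 to 1469, and for c_sp9_rnd-5_family-1567 they were 732 to 1303 and 943 to 1540. Libraries of the strains overlap in all 4. In cb_rnd-5_family-3620 they do not, at 821 to 1138 in JU1421 and 639 to 775 in ZZY10307, but the log2 fold change of -0.54 (SE 0.26) did not pass (edgeR adjusted p = 0.376).

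**Figure D5:**
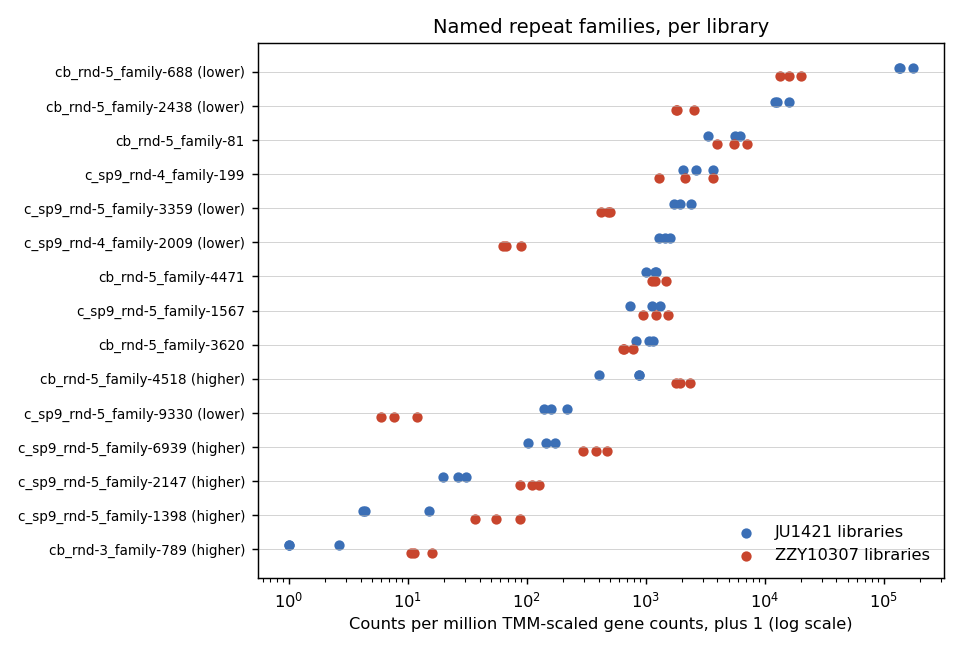
Points give the CPM of TMM-scaled gene counts, plus 1, on a log axis, of each named repeat family in the 3 JU1421 (blue) and 3 ZZY10307 (red) libraries, with families ordered by their JU1421 mean. The 2 top families fall by 3.18 and 2.72 on the log2 scale, while the third and the fourth overlap between strains.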

How the data were processed

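The authors deposited raw counts per gene (14 libraries) and per repeat family (12 male libraries), each a whole number in the files. Male RNA (300 ng) went into a stranded TruSeq kit, per the labels' protocols, and reads were pairs of 150 nt, per the series' design text. Trimmomatic and edgeR were used, per the submitters' processing notes. For the aligner, counter, build, annotation and strand setting, no source used here gives a name. Hence genes that overlap, or share reads with near-identical copies, cannot be told apart.

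Genes were kept by filterByExpr (minimum count 10) in edgeR 4.0.16 under R 4.3.3, scaled by TMM and fitted over the 12 male libraries with 1 coefficient per strain by robust quasi-likelihood. Families with 10 or more counts over these libraries used the library sizes and factors of the genes. SE is the absolute log2 fold change over the square root of F. Sex classes compare 3 AF16 males with 1 female library (TMM, ratio 4, prior count 2, at least 5 CPM in the higher sex). Shares and sums per library were compared by exact permutation. Counting intervals and floors cover counting error only. Libraries of 1 strain differed beyond sampling noise, with a chi-square of 7.01 to 15.9 for each degree of freedom.

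As identifiers have no names, the genes named are, in each direction, the 2 called genes of largest log2 fold change with 10 CPM or more in the higher strain and no overlap. Named families are the 5 each way with the lowest adjusted p and the 10 with the highest JU1421 mean. Members and lists were chosen with earlier results of these data known. Scripts were tested on simulated data. Function lists, marker genes and the X interval were not analysed here, as no table pairs identifiers with names or positions. Alternatives included DESeq2 1.42.0 and are given in the closing section.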

Additional observations from a re-analysis of the deposited data

Results flagged for a closer look

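Of the genes and families named above, 8 responded differently in ZZY10307 and ZZY10330 by the direct edgeR test between these strains, given here as log2 of ZZY10307 over ZZY10330. The value was 8.39 for WBGene00027595 (adjusted p = 6.71e-05), which ZZY10330 males barely showed, and 1.80 for WBGene00025461 (adjusted p = 0.0465). Among repeat families it was -1.56 for cb_rnd-5_family-688 (adjusted p = 2.12e-09), -1.30 for cb_rnd-5_family-2438 (adjusted p = 6.40e-06), -1.76 for c_sp9_rnd-5_family-9330 (adjusted p = 8.29e-05) and -0.90 for c_sp9_rnd-5_family-3359 (adjusted p = 0.0300), all 4 lower in ZZY10307. The value was 4.76 for cb_rnd-3_family-789 (adjusted p = 0.00230). For cb_rnd-5_family-4471 it was -1.66 (adjusted p = 1.48e-08), with 1267 ± 178 in ZZY10307 and 4007 CPM in ZZY10330 (SD, n = 3), a family that did not pass between ZZY10307 and JU1421.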

How the results depend on the processing

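All directions of called genes and families named above held under every setting run, and 3 calls, given beside their families, were lost without 1 library. Scaled by total counts alone, 2472 genes were higher, 117 male-biased and 125 female-biased genes rose, the class medians were -1.07 and 0.77, 16 families rose and 11 fell, genes of neither class above 100 CPM turned to 0.26 and c_sp9_rnd-4_family-199 to 0.17. Without a filter the female-biased median was 0.28, and 0.31 with TMM over genes of neither class, a setting chosen after seeing the data. With the 6 libraries alone, 106 female-biased genes rose and 33 fell, and 44 families passed, 19 of them higher. DESeq2 called 16 higher families. At a bias ratio of 2, 214 male-biased genes rose (median -0.86), 233 female-biased rose and 79 fell (0.25), and the shares differed by -18.1 and 4.48 percentage points. At a ratio of 16, 374 male-biased fell and 10 rose (-1.97), 16 female-biased rose and 3 fell, and shares differed by -8.83 and 0.0482 points. With JU1421 classes, not independent of the controls, 37 male-biased genes rose, 187 female-biased rose and 2 fell (0.83), and shares differed by -22.4 and 2.10 points. The top 500 genes differed by -7.48 points. Summed repeat CPM differed by -147020 on the TMM scale and by -5859 without the top family (exact permutation p = 0.2). Leaving out each library in turn gave 38 to 52 female-biased rises, 12 to 20 falls, 16 to 21 families called and 11 to 14 families lower. The sign of cb_rnd-5_family-81 turned to -0.10 and -0.09, and of c_sp9_rnd-4_family-199 to 0.02 and 0.067, its range without each library being -0.69 to 0.067. The cause was not tested. Replicate numbers do not pair the samples (correlation of same-numbered deviations -0.0167 to 0.0139), and with the replicate block 2883 genes and 19 families were called. Function lists and the X interval were not run. Depth limits weakly counted genes and families most.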
